A study of Mus musculus with 4 samples.

Results

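The genes described are 33 members of the pathways that make cholesterol and fatty acids, chosen by name as pathway members, with earlier results of these arrays known. They comprise 7 enzymes that build farnesyl units, 11 that make squalene and turn it into cholesterol, 6 regulators or carriers of sterol and 9 enzymes of fatty acid synthesis and desaturation. Of these, 32 had a probe set named for that gene alone, among 18193 genes on the array, and Acat2, a cytosolic thiolase that supplies acetoacetyl-CoA, was not analysed here. All 32 passed the filter on low signal and lay above its level of 5.97 (log2) on all 4 arrays, so none entered through a single group. In all, 13366 genes were tested.

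RNA was profiled on 4 oligonucleotide arrays, 2 from a tumorigenic subline called glioma-initiating cell-like (GIC) and 2 from a nontumorigenic subline (non-GIC). Both sublines derived from telencephalic neuroepithelial cells of p53-/- C57BL/6 mouse embryos at day 14.5, transfected by electroporation with pCMS-EGFP-HRasL61, which encodes an activated HRas beside EGFP, and with pBabe-neo. They were selected in neomycin, sorted for GFP and grown as floating spheres in serum-free medium that held insulin, transferrin, albumin, progesterone, forskolin, PDGF and bFGF. The HRas plasmid, the p53 deletion and this medium were common to GIC and non-GIC, and the labels name no untransfected control. Whether a subline's arrays represent independent cultures or clones is not stated in the labels; the p-values below therefore reflect array-to-array spread, which may be technical.

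Animal cells make cholesterol from acetyl-CoA through mevalonate, farnesyl diphosphate, squalene and lanosterol. When sterol in the endoplasmic reticulum is low, SCAP carries the SREBP transcription factors to the Golgi, where they are cut, and the released fragments switch on these enzymes together. INSIG proteins hold SCAP back when sterol is plentiful. SREBP-2, from Srebf2, acts mainly on cholesterol genes, and SREBP-1c, from Srebf1, mainly on fatty acid genes. In the brain, cells make their own cholesterol, since lipoprotein cholesterol does not cross the blood-brain barrier.

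Promoters of 4 members are shown because these genes were among those whose signal differed most between the non-GIC arrays, and because SREBPs act with NF-Y and Sp1 at such promoters. The sequences are RefSeq windows of 300 bases on build GRCm38.p6, read 5′ to 3′ on the gene's strand. Capitals mark TCACNCCAC (a core of the sterol regulatory element), CCAAT (the NF-Y box) and GGGCGG (the Sp1 box), each on either strand.
Idi1, chr13:8885356-8885655, plus strand: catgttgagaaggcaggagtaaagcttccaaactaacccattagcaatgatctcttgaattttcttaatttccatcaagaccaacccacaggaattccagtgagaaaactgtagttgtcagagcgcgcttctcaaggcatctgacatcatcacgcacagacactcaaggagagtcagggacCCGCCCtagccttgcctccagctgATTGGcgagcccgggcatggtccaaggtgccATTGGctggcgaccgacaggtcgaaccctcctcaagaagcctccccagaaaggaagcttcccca
Hmgcs1, chr13:119690101-119690400, plus strand: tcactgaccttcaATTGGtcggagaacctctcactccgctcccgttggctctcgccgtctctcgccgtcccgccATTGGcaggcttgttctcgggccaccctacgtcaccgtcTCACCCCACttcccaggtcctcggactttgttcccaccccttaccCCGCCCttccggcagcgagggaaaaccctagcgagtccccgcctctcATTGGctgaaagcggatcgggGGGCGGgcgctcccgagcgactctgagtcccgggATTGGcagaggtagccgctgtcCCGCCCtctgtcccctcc
Cyp51, chr5:4104648-4104947, minus strand: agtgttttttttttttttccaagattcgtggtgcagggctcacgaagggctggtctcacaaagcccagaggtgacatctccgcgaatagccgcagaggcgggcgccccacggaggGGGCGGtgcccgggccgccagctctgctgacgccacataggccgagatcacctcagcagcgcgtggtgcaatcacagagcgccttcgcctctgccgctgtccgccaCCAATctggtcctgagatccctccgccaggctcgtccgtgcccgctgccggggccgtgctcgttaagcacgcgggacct
Insig1, chr5:28071162-28071461, plus strand: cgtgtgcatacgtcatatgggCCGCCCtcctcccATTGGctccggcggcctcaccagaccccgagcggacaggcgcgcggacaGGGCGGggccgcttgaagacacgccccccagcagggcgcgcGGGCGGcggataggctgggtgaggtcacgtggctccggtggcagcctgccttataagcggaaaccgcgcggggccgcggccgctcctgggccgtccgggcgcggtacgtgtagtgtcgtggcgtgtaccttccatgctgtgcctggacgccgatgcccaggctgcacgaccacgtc
The sterol element core matched in Hmgcs1 alone among the 26 members with a promoter in the table, at position -137 from the start, and in 1.41% of the 10755 tested genes with a promoter. CCAAT was present in 21 of 26 members and 42.6% of those tested genes. GGGCGG was present in 22 of 26 members and 66.0% of those tested genes. No matches of different motifs overlapped in member promoters, and some genes have more than 1 window, any of which counted. CCAAT was found in 12 of 14 members with a gap of at least 1 between the non-GIC arrays and in 9 of the 11 other measured members. GGGCGG gave the same counts of 12 of 14 and 9 of 11. A match describes the letters of a window and is not a measured binding site. Only the exact patterns were searched, so a window without a match may still hold another form of the element.

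For most members the difference between GIC and non-GIC was smaller than the spread between the non-GIC arrays. No member was called in either direction by limma's moderated test at an adjusted p under 0.05, against 1.92% of all tested genes. A count of 0 in 32 is near that share. At an unadjusted p under 0.05 the count was 1 of 32 members (Acss2), against 17.9% of tested genes. The median difference, GIC minus non-GIC, was -0.18 (log2) over the members and -0.012 over all tested genes. Of the members 10 had values above 0 and 22 below 0, with a range from -0.79 for Stard4 to 1.02 for Scd1. The GIC and non-GIC arrays did not overlap for 4 members (Acss2, Insig2, Scap and Scd1), against 50.4% of tested genes. A wide spread between the non-GIC arrays, known when the members were chosen, raises p-values and makes overlap more likely. Low counts of small p-values and of non-overlap are therefore not separate results. The intervals of the group differences were wide, and a p above the threshold does not show that levels were equal. For any 1 gene, an exact two-sided permutation test on 2 against 2 arrays has a smallest possible p of 0.33.

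The members differed between the non-GIC arrays. Replicate 1 exceeded replicate 2 by at least 1 on the log2 scale, a 2-fold gap, for 19 of 32 members, against 0.703% of tested genes. The reverse gap of at least 1 was found for 0 members and 2.31% of tested genes. The median gap was 1.18 (2.26-fold) over the members and 0.012 over all tested genes, and 30 of 32 members were higher on replicate 1. This gap was larger than the group difference for 30 of 32 members, against 44.7% of tested genes. With 1 array against 1 these gaps have no test and are descriptions. They were among the results known when the members were chosen.

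On the GIC arrays the same genes lay closer together. The median gap, replicate 1 minus replicate 2, was 0.32 over the members and 0.00425 over all tested genes. No member had a gap of 1 or more in either direction, against 2.28% of tested genes higher on replicate 1 and 0.883% higher on replicate 2. Members were higher on GIC replicate 1 in 23 of 32 cases, against 50.7% of tested genes. Both GIC values lay between the 2 non-GIC values for 21 of 32 members, against 9.91% of tested genes. A wide non-GIC gap, known when the members were chosen, makes this more likely, so the count is not a separate result.

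**Figure D1:**
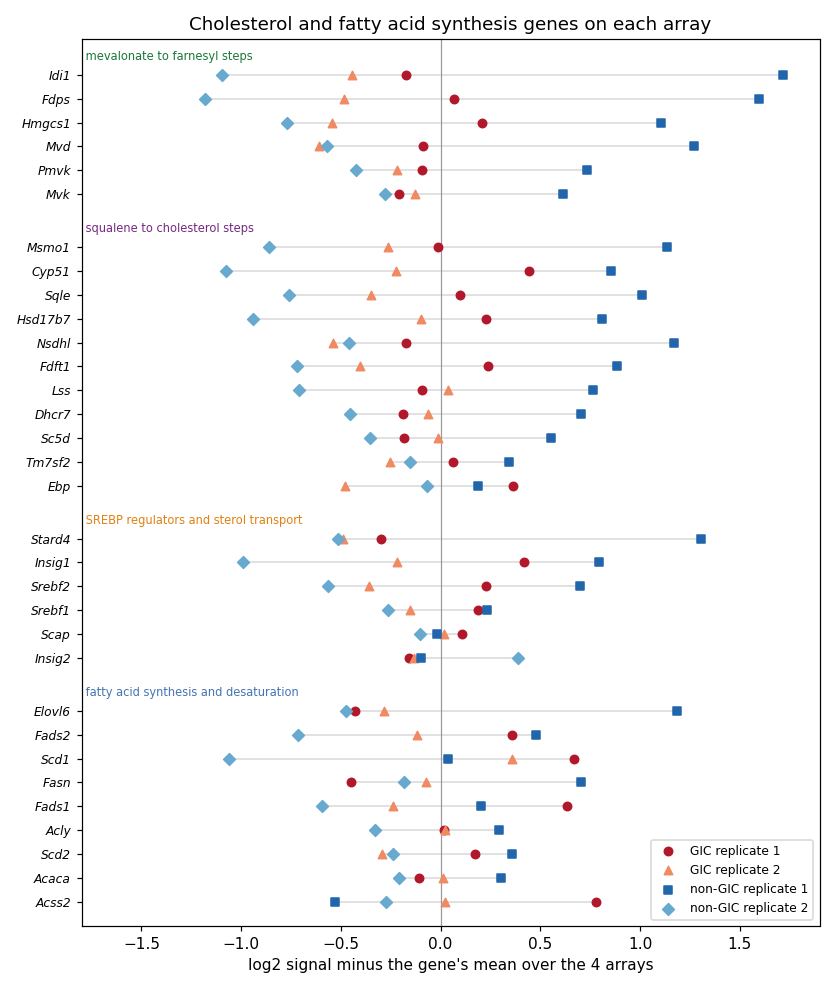
Log2 signal of each of the 32 measured members on the 4 arrays, as a deviation from that gene's mean, grouped by role and sorted by the gap between the non-GIC arrays. Red and orange points are GIC arrays and blue points non-GIC arrays; for Idi1 non-GIC replicate 1 lies 2.81 above non-GIC replicate 2, with both GIC arrays between them.

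**Figure D2:**
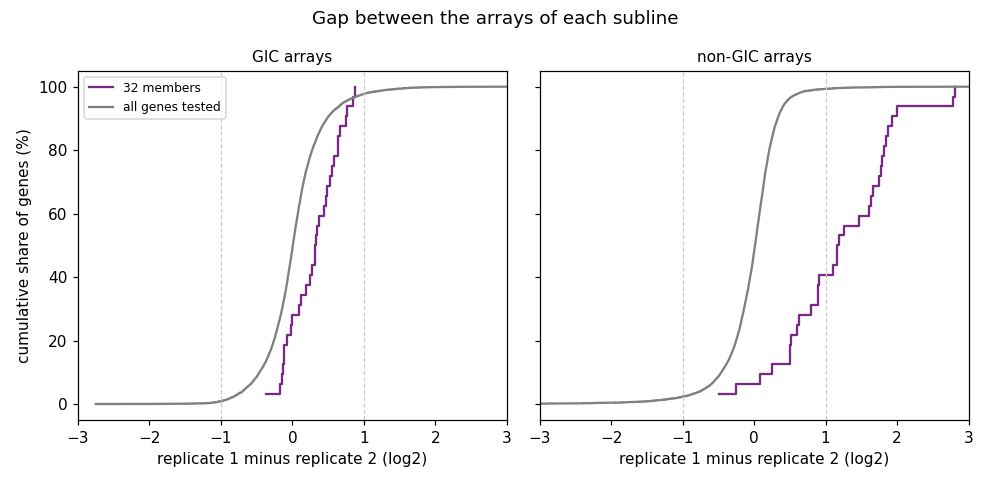
Cumulative share of genes (%) against the gap between the replicate arrays (log2, replicate 1 minus replicate 2) in GIC (left) and in non-GIC (right), for the 32 members and for all 13366 genes tested. Dashed lines mark gaps of 1 in either direction; 19 members lie beyond 1 in non-GIC and 0 in GIC.

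The enzymes from acetyl-CoA units to farnesyl diphosphate showed the widest gaps, with a median of 1.86 over 6 measured genes. Idi1, the isomerase that makes dimethylallyl diphosphate, had log2 signals of 10.24 and 9.97 in GIC and 12.13 and 9.32 in non-GIC (replicates 1 and 2, the order used throughout). Fdps, which makes farnesyl diphosphate, had 11.37 and 10.82 in GIC and 12.91 and 10.13 in non-GIC. In both genes the GIC arrays sat between the non-GIC arrays, which stood 7.02-fold apart for Idi1 and 6.86-fold apart for Fdps. These gaps ranked 4 and 5 in this direction among all tested genes.

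Hmgcs1, the cytosolic synthase that makes HMG-CoA, had 11.86 and 11.11 in GIC and 12.76 and 10.88 in non-GIC. Mvd, which decarboxylates mevalonate diphosphate, had 8.62 and 8.10 in GIC and 9.98 and 8.14 in non-GIC. For Mvd the single high array was non-GIC replicate 1, and the other 3 lay within 0.52 of each other. The kinases that phosphorylate mevalonate in sequence had smaller gaps, of 0.89 for Mvk and 1.15 for Pmvk. Group differences of the 6 genes ran from -0.70 for Mvd to -0.31 for Pmvk, with adjusted p from 0.633 to 0.858 by limma. Idi1 averaged 10.10 ± 0.19 in GIC and 10.72 ± 1.99 in non-GIC (mean ± SD over 2 arrays each), and Fdps 11.10 ± 0.39 in GIC and 11.52 ± 1.96 in non-GIC. For Idi1 the difference was -0.62 (SE 0.93), with a 95% interval from -3.06 to 1.82.

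From squalene synthesis to cholesterol, all 11 enzymes were higher on non-GIC replicate 1, 8 of them by at least 1, with a median gap of 1.60. Sqle, the squalene epoxidase, had 11.39 and 10.94 in GIC and 12.30 and 10.53 in non-GIC. Msmo1, a methyl sterol oxidase, had 10.81 and 10.56 in GIC and 11.96 and 9.96 in non-GIC. Cyp51, the lanosterol demethylase, had 10.67 and 10.00 in GIC and 11.07 and 9.14 in non-GIC. In each of these 3 genes non-GIC replicate 1 was the highest array and non-GIC replicate 2 the lowest.

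Hsd17b7, a sterol ketone reductase, had 9.71 and 9.39 in GIC and 10.30 and 8.55 in non-GIC. Nsdhl, which removes a carboxyl group from sterol intermediates, had 9.94 and 9.58 in GIC and 11.29 and 9.65 in non-GIC. Nsdhl had its second highest value on a GIC array and its lowest on the other GIC array, so that non-GIC replicate 1 stood alone. Fdft1, the squalene synthase, had 10.34 and 9.70 in GIC and 10.98 and 9.38 in non-GIC. The lanosterol synthase Lss had a gap of 1.47 and the last reductase of the pathway, Dhcr7, one of 1.16.

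Not every enzyme of this stretch had a wide gap. It was 0.91 for the desaturase Sc5d, 0.50 for the reductase Tm7sf2 and 0.26 for the isomerase Ebp. Ebp had 11.67 and 10.83 in GIC and 11.49 and 11.24 in non-GIC, so its GIC arrays differed more than its non-GIC arrays. Group differences of the 11 genes ranged from -0.71 for Nsdhl to 0.22 for Cyp51, with adjusted p from 0.580 to 0.967 by limma. For Nsdhl the 95% interval was -2.19 to 0.77.

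The regulators split by gene. Srebf2 had 10.44 and 9.85 in GIC and 10.91 and 9.65 in non-GIC, a non-GIC gap of 1.26. Srebf1 had 10.59 and 10.25 in GIC and 10.63 and 10.14 in non-GIC, a gap of 0.49. Insig1, a retention protein whose gene is itself an SREBP target, had 9.40 and 8.76 in GIC and 9.78 and 7.99 in non-GIC. Its gap of 1.79 went with those of the enzymes.

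Insig2, a second retention protein that is not induced by SREBPs in the same way, went the other way. It had 9.96 and 9.98 in GIC and 10.01 and 10.50 in non-GIC, with non-GIC replicate 2 the highest array. Scap, the escort of SREBPs, had values between 10.67 and 10.89 on all 4 arrays. Stard4, a soluble sterol carrier, had 9.45 and 9.25 in GIC and 11.05 and 9.23 in non-GIC. The gap of Stard4 was 1.82, and it again set non-GIC replicate 1 apart from the other 3 arrays. None of the 6 passed the test, with adjusted p from 0.566 for Insig2 to 0.959 for Srebf1 by limma.

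Fatty acid genes had a smaller median gap of 0.80, with 3 of 9 at or above 1. Elovl6, which lengthens palmitate, had 9.36 and 9.50 in GIC and 10.97 and 9.31 in non-GIC. Fads2, the delta-6 desaturase, had 10.39 and 9.91 in GIC and 10.51 and 9.31 in non-GIC. Scd1, a stearoyl-CoA desaturase, had 11.26 and 10.95 in GIC and 10.63 and 9.53 in non-GIC. For Scd1 both GIC arrays exceeded both non-GIC arrays, with a difference of 1.02 (SE 0.40, 2.03-fold, limma adjusted p = 0.291) and a 95% interval from -0.03 to 2.08.

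Fasn, the fatty acid synthase, had 10.86 and 11.24 in GIC and 12.01 and 11.13 in non-GIC. The gaps of the other enzymes that supply or build palmitate were 0.62 for the citrate lyase Acly and 0.51 for the carboxylase Acaca. On the GIC arrays Fasn, Acaca and Acly had gaps from -0.38 to -0.0052, while 13 of 17 sterol enzymes had GIC gaps above 0. Scd2, a second stearoyl-CoA desaturase, had a gap of 0.60, and Fads1, the delta-5 desaturase, one of 0.80 with a GIC gap of 0.87.

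Acss2, which makes acetyl-CoA from acetate, did not share the pattern. It had 8.54 and 7.78 in GIC and 7.23 and 7.49 in non-GIC, with a difference of 0.80 (SE 0.29, limma adjusted p = 0.264). Its non-GIC gap was -0.26, and its highest array was GIC replicate 1. Over the 9 fatty acid genes the median difference was 0.037 and none passed the test, with the highest adjusted p at 0.952.

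**Figure D3:**
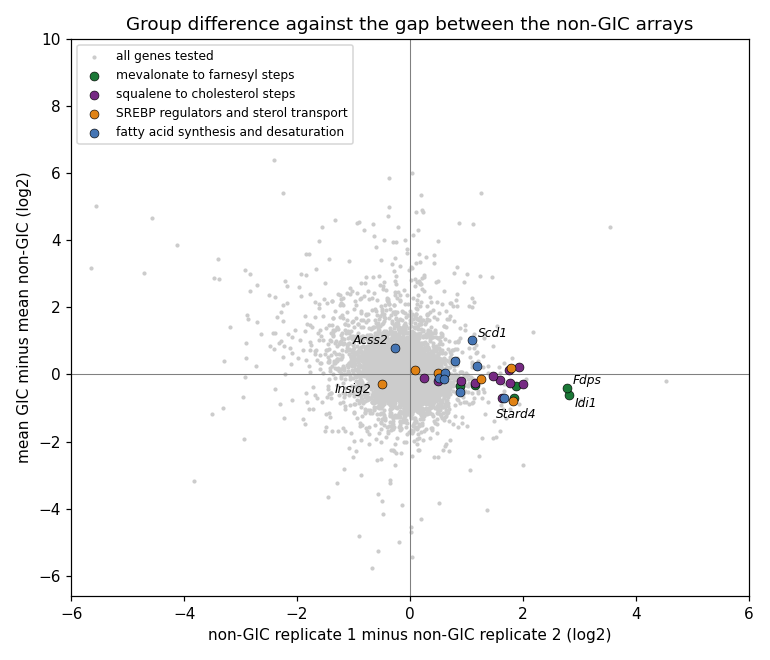
Mean GIC minus mean non-GIC (log2, vertical) against non-GIC replicate 1 minus non-GIC replicate 2 (log2, horizontal) for all 13366 genes tested (grey) and the 32 members (coloured by role). Members spread to the right, up to 2.81 for Idi1, and stay between -0.79 and 1.02 on the vertical axis; the axes share the non-GIC arrays.

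The sign of the group difference followed the non-GIC array used. This is largely given by the gap between those arrays, which was known when the members were chosen, and is not a separate result. Against non-GIC replicate 1 alone, all 17 measured sterol enzymes were lower in GIC, with a median of -0.89. Against non-GIC replicate 2 alone, all 17 were higher in GIC, with a median of 0.60. Over all members, 29 of 32 were lower in GIC against replicate 1 and 30 of 32 were higher against replicate 2. Of all tested genes, 52.8% were lower in GIC against replicate 1 and 48.9% against replicate 2. Idi1 gave -2.03 against non-GIC replicate 1 and 0.79 against non-GIC replicate 2, and Cyp51 gave -0.74 and 1.19.

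Acss2 and Scd1 were above 0 in both cases, at 0.93 and 0.67 for Acss2 and at 0.47 and 1.58 for Scd1. Scap was also above 0 in both, at 0.082 and 0.17. Fasn at -0.97 and -0.081 and Insig2 at -0.045 and -0.54 were below 0 in both. The fits against a lone non-GIC array depend on the gap that was known when the members were chosen. Their counts of small p-values, given next, follow in large part from that choice. These counts are descriptions, not separate results, and give no support for the list. In these fits the lone non-GIC array was assumed to vary like the GIC arrays, and no member was called, with limma adjusted p of 0.132 or more against replicate 1 and 0.211 or more against replicate 2. These fits called 0.419% of all tested genes against replicate 1 and 0.0898% against replicate 2, so a count of 0 in 32 is near the background. At an unadjusted p under 0.05 there were 14 of 32 members against replicate 1, beside 13.6% of tested genes. Against replicate 2 there were 5 of 32 members, beside 10.4% of tested genes.

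**Figure D4:**
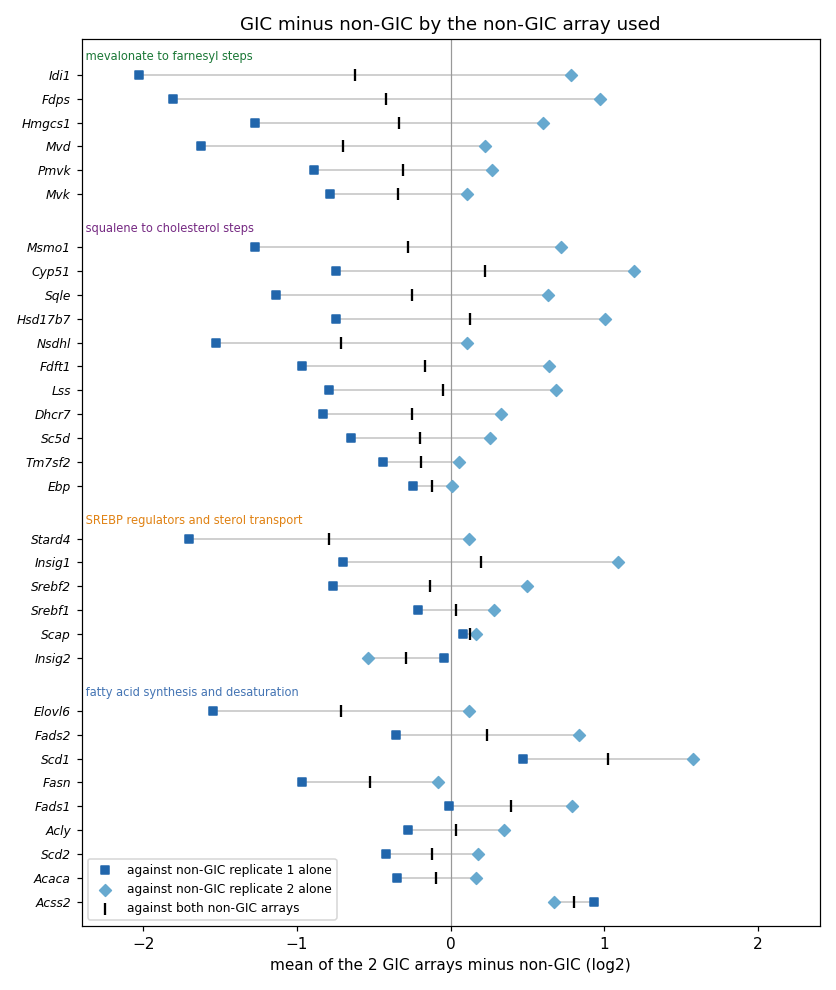
Difference of the mean of the GIC arrays minus non-GIC (log2) for each measured member, against non-GIC replicate 1 alone (dark squares), non-GIC replicate 2 alone (light diamonds) and both (black ticks). The squares of all 17 sterol enzymes lie below 0 and their diamonds above 0.

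Other probe sets of the members gave the same direction. Past the filter there were 33 further probe sets for 20 members, of which 32 had a non-GIC gap of the same sign as the main probe set. The exception was 1 of the 3 further probe sets of Fdft1, at -0.11. Further probe sets gave gaps of 1.94 to 2.04 for Hmgcs1 and 2.68 for Idi1. They gave 1.57 to 1.62 for Stard4 and -0.77 to -0.52 for Insig2. Probe sets of a gene share its RNA and are not replicates.

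Members were common among the genes with the widest gap in this direction. Of the 20 tested genes with the largest excess on non-GIC replicate 1, 10 were members. The gap was known when the members were chosen, so this count is a description and gives no support for the list. They were Idi1, Fdps, Msmo1, Cyp51, Hmgcs1, Mvd, Stard4, Insig1, Sqle and Hsd17b7. The 3 genes with larger gaps than Idi1 were Bex1, Slc6a15 and Glipr1, at 4.54, 3.54 and 3.03. The 10 other tested genes nearest to the members' median profile, by Euclidean distance of centred log2 values over the 4 arrays, were Lbh, Chd3, Fkbp5, Gdpd5, Nfkb2, Sohlh2, Pdp2, Depp1, Gprasp1 and 4833438C02Rik. Lbh, a transcriptional cofactor, was nearest, with a gap of 1.07.

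Lipid genes outside the membership were spread around 0 between the non-GIC arrays. Of 77 listed genes 60 were tested, with a median gap of -0.037. Of these, 1 (Lrp8, a lipoprotein receptor) had a gap of at least 1 and 3 (Vldlr, Abca1 and Pparg) had gaps of -1 or below. Proteins that cut or degrade SREBPs and their regulators (10 tested) had gaps from -0.50 to 0.32. Other isoprenoid and sterol enzymes (11 tested) had gaps from -0.47 to 0.41. Of 10 tested genes of sterol uptake, efflux and storage, 6 were lower on non-GIC replicate 1, against 6417 of all 13366 tested genes. The largest such gaps were those of the lipoprotein receptor Vldlr and the cholesterol exporter Abca1. Vldlr had 7.42 and 7.71 in GIC and 7.96 and 9.85 in non-GIC, and Abca1 had 11.98 and 10.49 in GIC and 9.42 and 10.78 in non-GIC. Of 12 tested genes of fatty acid oxidation and PPAR targets 9 were lower on non-GIC replicate 1, beside those 6417 of 13366 genes. Pparg, a nuclear receptor of lipid storage, had a gap of -1.18. Other genes of fatty acid and glycerolipid synthesis (17 tested) had gaps from -0.38 to 0.83.

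In these lists the test called 1 gene higher and 1 lower in GIC. Elovl7, a fatty acid elongase, had 6.76 and 6.47 in GIC and 5.12 and 5.31 in non-GIC, and rose (limma adjusted p = 0.0319). Both non-GIC values lay under the filter level of 5.97, so the gene was tested only through GIC, and against that level it was at least 1.57-fold higher. This call was lost when GIC replicate 1 (adjusted p = 0.105), non-GIC replicate 1 (adjusted p = 0.132) or non-GIC replicate 2 (adjusted p = 0.0944) was left out, and with a replicate block (adjusted p = 0.126). Pdk4, a kinase that restrains pyruvate entry into acetyl-CoA, had 4.39 and 4.05 in GIC and 7.51 and 8.07 in non-GIC, and fell (limma adjusted p = 0.0122). Both GIC values lay under the filter level, so it was tested only through non-GIC, and against that level it was at least 3.52-fold lower in GIC. Its call was lost with a replicate block (adjusted p = 0.0677). No gene passed among the other isoprenoid and sterol enzymes, where Pdss2 was lowest at an adjusted p of 0.148, among SREBP processing genes (Pgrmc1, 0.382) or in sterol uptake, efflux and storage (Mylip, 0.197).

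Arrays, RNA and cell markers were checked beside the non-GIC gap. Array medians lay between 6.58 and 6.63, and the 3′ minus 5′ signal of 4 control transcripts differed between the non-GIC arrays by less than 0.1. Across tested genes, which are not independent, the GIC arrays correlated at r = 0.976 and the non-GIC arrays at r = 0.978. Of 9 neural stem cell markers 8 were tested, with mean log2 levels of 9.36 and 9.30 in GIC and 9.83 and 10.16 in non-GIC. Sox2 had 10.20 and 10.59 in GIC and 11.15 and 11.44 in non-GIC, and Olig2 did not pass the filter. Nes and Fabp7 of this list were called lower in GIC, Fabp7 with both GIC values under the filter level and so tested only through non-GIC, and Slc1a3 had 8.78 and 11.00 on non-GIC replicates 1 and 2.

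Markers of oligodendrocytes, which make much cholesterol for myelin, had a mean level of 7.14 and 7.08 in GIC and 7.08 and 7.20 in non-GIC (6 of 8 tested), and Mog did not pass the filter. Of the 6, Cnp had a non-GIC gap of -0.97 (8.69 and 9.66), and the other 5 had gaps between 0.0043 and 0.11. The fibroblast and mural list (4 of 6 tested) averaged 11.59 and 10.37 in GIC and 11.10 and 11.11 in non-GIC, with Lum and Rgs5 under the filter. Within it Col1a2 had 11.46 and 9.28 on non-GIC replicates 1 and 2, while Dcn had 7.26 and 8.27. On GIC replicates 1 and 2 Col1a1 had 13.59 and 10.70, Pdgfrb 12.56 and 11.18, Dcn 8.67 and 7.90, and Col1a2 11.5 and 11.7. Endothelial (2 of 5 tested), astrocyte (4 of 5) and leukocyte markers (1 of 6) had gaps between -0.075 and 0.32. The neuronal list (3 of 5 tested) did not move one way. Map2 was called lower in GIC, Tubb3 had 9.77 and 10.06 in GIC and 7.98 and 9.56 in non-GIC without passing the test, and Rbfox3 differed by 0.016. The part of these markers in the gap was not tested. Fewer cells of a type and less RNA per cell cannot be told apart in bulk samples.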

How the data were processed

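The deposited table holds 1 log2-scale signal per probe set and array (45101 probe sets). Its log2 scale was inferred from the range of values; the arrays have near-equal quantiles. How the authors corrected, summarised and normalized the probes is not given in the sources used here. RNA was biotin-labelled with the Affymetrix One-Cycle procedure, per the labels.

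Gene names came from the platform annotation, with symbols updated by Entrez identifier to the RefSeq gene table of GRCm38.p6: 34945 had 1 gene, 932 several, 9160 none here, and 64 were controls. Each gene was represented by its brightest probe set, by mean over all 4 arrays. Genes were tested if at least 2 arrays exceeded the 40th percentile of all values. GIC minus non-GIC was fitted by limma (version 3.58.1, R 4.3.3) with lmFit and a trended eBayes on a model of group alone, two-sided, Benjamini-Hochberg over 13366 genes, threshold 0.05. The fit had 2 residual and 2.72 prior degrees of freedom, and it was tested on simulated data. Intervals are 95% and use the moderated spread. The number of arrays limits their precision. Figures used matplotlib 3.10.9 in Python 3.11.15.

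The members, gene lists and tests were chosen with earlier results of these data known, the gap between the non-GIC arrays among them. All members were named. Of other lipid genes, those past the threshold were named, or else the smallest p per list; Lrp8, Vldlr, Abca1, Pparg and the markers given singly were named after their values were seen. The labels do not say whether replicate numbers pair the arrays, and the main fit used no pairing. Over tested genes the deviations of same-numbered arrays correlated at -0.32 (across genes), and over the 32 members at 0.16. Genes are not independent, so these values do not settle the pairing. Alternatives changed the scaling, filter, probe set choice, eBayes setting and block, and left out each array.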

Additional observations from a re-analysis of the deposited data

How the results depend on the processing

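No member passed the threshold under any alternative run, and the lowest adjusted p of a member was 0.0898, with the crossed block. The member median of GIC minus non-GIC stayed between -0.21 and -0.13 over scaling, filter, probe set, eBayes and block choices, and ran from -0.75 without non-GIC replicate 2 to 0.34 without non-GIC replicate 1. Over scaling, filter and probe set choices 17 to 19 members had a non-GIC gap of at least 1. With a replicate block, 21 genes were higher and 8 lower over all tested genes, in place of 165 and 92, and the calls of Elovl7 (adjusted p = 0.126) and Pdk4 (0.0677) were lost. A block with crossed numbers, chosen after seeing the data, gave 457 higher and 228 lower. With each array left out, 5 to 142 genes were higher and 7 to 46 lower; fewer arrays enter those fits, and the lowest counts were without non-GIC replicate 1. Elovl7 gave no value with the filter at the 60th percentile or with the mean of probe sets, where it did not pass the filter. With the mean of probe sets Lss turned to 0.17, Hsd17b7 to -0.081 and Acly to -0.044; leaving out probe sets whose suffix marks several transcripts, Lss turned to 0.71 and Hsd17b7 to -0.12, and 29 members were tested. The cause was not tested. With each array left out, GIC minus non-GIC changed sign in 27 members, none of them called, with these ranges: Hmgcs1 -1.27 to 0.60, Mvk -0.79 to 0.11, Pmvk -0.89 to 0.27, Mvd -1.62 to 0.22, Idi1 -2.03 to 0.79, Fdps -1.81 to 0.97, Fdft1 -0.97 to 0.64, Sqle -1.14 to 0.64, Lss -0.79 to 0.68, Cyp51 -0.74 to 1.19, Tm7sf2 -0.44 to 0.056, Msmo1 -1.28 to 0.72, Nsdhl -1.53 to 0.11, Hsd17b7 -0.75 to 1.003, Ebp -0.54 to 0.30, Sc5d -0.65 to 0.25, Dhcr7 -0.83 to 0.33, Srebf1 -0.22 to 0.28, Srebf2 -0.76 to 0.50, Insig1 -0.70 to 1.09, Stard4 -1.70 to 0.12, Acaca -0.35 to 0.16, Acly -0.28 to 0.35, Elovl6 -1.54 to 0.12, Scd2 -0.42 to 0.18, Fads1 -0.045 to 0.83, Fads2 -0.36 to 0.84.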
